A study of Proteus anguinus with 14 samples.

Results

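Gene expression was compared here between 2 sets of organs of the olm (Proteus anguinus), a blind cave salamander that keeps its gills for life. One set held the gut, liver and lung, 8 samples in all, and the other held the brain, heart and skin, 6 samples, which together are all 14 samples of the series. A gene was counted when 3 things held: it passed a limma test between the 2 sets at an adjusted p under 0.05, its log2 difference was above 1, and each of the 3 organ means of one set lay above each of the 3 organ means of the other. Of 16317 assembled genes tested, 740 met this rule (4.54%), 277 of them higher in gut, liver and lung (1.7%) and 463 higher in brain, heart and skin (2.84%). These shares are the background against which the counts of gene groups are read. No share of a gene group was tested against them. The split between the directions depended on the scaling of the samples: 37.4% of the called genes were higher in gut, liver and lung here, against 3.11% on TPM as deposited, with 89 and 2769 genes called, and 42.2% with quantile normalization.

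All samples came from 3 wild-caught olms, named p4, p5 and p6, which were housed in the dark and served as the non-infected controls of a skin fungus infection study. Liver and lung were sampled in all 3 animals, gut in p4 and p5, and brain, heart and skin in p4 and p6. The age of the animals is not given in the sources used here, and no treatment, allele or transgene separates the samples. Values below are always given in the order p4, p5, p6 for liver and lung, p4, p5 for gut, and p4, p6 for brain, heart and skin. They are normalized TPM, which are the deposited TPM (transcript abundances that add up to one fixed total in each sample) divided by a scaling factor. A log2 difference is the mean of log2(normalized TPM + 1) in gut, liver and lung minus that in brain, heart and skin, so that positive values are higher in the viscera.

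The linings of gut, liver and lung arise from the endoderm, the inner layer of the embryo, and these organs are known for absorption, for secretion into blood or bile, and for chemical conversion of nutrients and toxins. The brain and the heart are excitable, which means that their cells carry electrical signals by ion channels, and the heart is in addition contractile through sarcomeres, the repeated units of myosin and actin filaments. The epidermis of skin is an epithelium from the ectoderm. The samples labelled skin also held large amounts of skeletal muscle RNA, given below. Every organ also holds blood, vessels, nerves and connective tissue. In such bulk samples fewer cells of a type and less RNA per cell cannot be told apart.

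The labels conflict on the organ of 10 samples. The titles and library names were used here, while the tissue fields name the gut samples heart, the heart samples gut, the liver samples lung and the lung samples liver. Exchanging gut with heart would move both across the comparison. Defining genes followed the titles. CDX1, a transcription factor of the intestine, was at 258 and 269 in gut and no higher than 0.849 in any other sample. NKX2-5, a transcription factor of heart muscle, was at 333 and 229 in heart and no higher than 1.96 elsewhere. SFTPB, the surfactant protein B of lung, was at 29.8, 41.5 and 39.5 in lung and no higher than 2.84 elsewhere. SERPINC1, the plasma inhibitor antithrombin that liver secretes, was at 1745, 1058 and 1183 in liver, 4.17, 164 and 117 in lung and no higher than 34.4 elsewhere. SYT1, a calcium sensor of synaptic vesicles, was at 457 and 309 in brain and no higher than 20.1 elsewhere, and KRT5, a keratin of the epidermis, was at 5233 and 1957 in skin against at most 188 elsewhere. For the second gut and the second heart sample the title and the sample table of the study name different animals, so that the animal of these 2 samples is uncertain.

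Several libraries stood apart. The p5 and p6 lung samples held RNA of liver genes that was scarce in the p4 lung sample. Over 56 genes chosen after the values were seen for being high in every liver sample and low in p4 lung and gut, the log2 ratio of p5 lung to p5 liver had a median of -2.31 and an SD of 0.29, and that of p6 lung to the same p5 liver sample a median of -2.72 and an SD of 0.29. Against the p4 and p6 liver samples the SDs were 0.72 to 0.77. The source of this RNA in the lung samples was not tested. The gene annotated NCAN, outside the 56 and named after its values were seen, shows this pattern, at 433, 6874 and 549 in liver and 7.02, 1337 and 1059 in lung. It was called higher in gut, liver and lung (log2 difference 5.34, adjusted p = 0.0233). The call was lost without p4 brain, p6 brain or p5 gut, and when organ was fitted as a random block (adjusted p = 0.204).

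**Figure D1:**
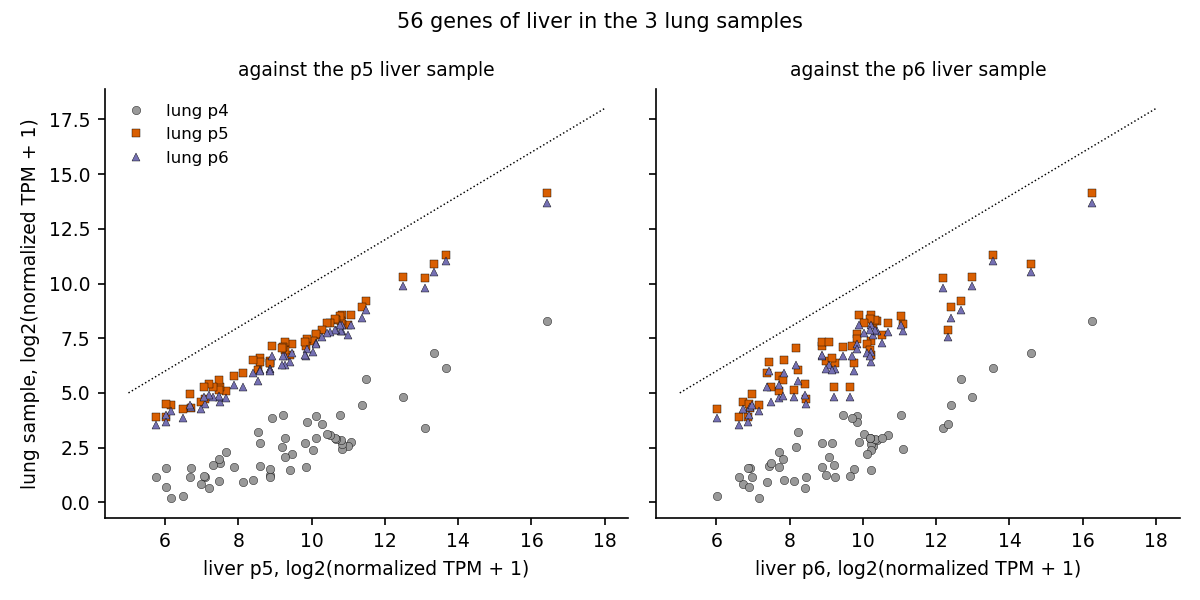
Normalized TPM of 56 liver genes in each of the 3 lung samples, on the y axis, against the p5 liver sample (left) or the p6 liver sample (right), on the x axis. Both axes are log2(normalized TPM + 1), each point is a gene, and the dotted line marks equal values. The p5 and p6 lung points follow the p5 liver sample closely (SD of the log2 ratio 0.29 for both) and the p6 liver sample loosely (SD 0.77 and 0.72).

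The p6 brain and p6 heart samples held more skeletal muscle RNA than the p4 samples of the same organs. Summed over the 23 tested members of a skeletal muscle list, the level was 3410.4 to 33031 in brain, 8258 to 37739 in heart and 88355 to 113815 in skin, with the p6 sample the higher in each organ, against 37.4 to 981 in gut, liver and lung. HBE1, annotated as a globin of red blood cells, made up 41.4% to 53.4% of the TPM of each lung library and at most 13.4% of any other. The 10 most abundant genes took 50.9% to 67.9% of TPM in the liver and lung samples and 12.8% to 35.8% in the others, and the scaling factors ran from 0.52 in p4 lung to 2.15 in p6 brain.

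The genes higher in gut, liver and lung included genes of lipid handling, plasma proteins, detoxification and amino acid breakdown. Among the 277 genes the median log2 difference was 1.72 and the largest was 8.13. In 83 of them every visceral sample lay above every sample of brain, heart and skin, which held for 118 of all genes tested (0.723%). The mean was highest in gut for 124, in liver for 107 and in lung for 46. Lung was the lowest of the 3 visceral organs for 142 of them, and skin was the highest of the other 3 organs for 137. The margin between these nearest organ means was small in most genes, with a median of 0.54 on the log2 scale and above 2 in 19 genes. The p4 lung sample, the one poor in RNA of the liver genes chosen above, lay by itself above each organ mean of brain, heart and skin in 198 of the 277 genes (71.5%). It is part of the lung mean used in the call, so this count describes the called genes and is no check on them.

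**Figure D2:**
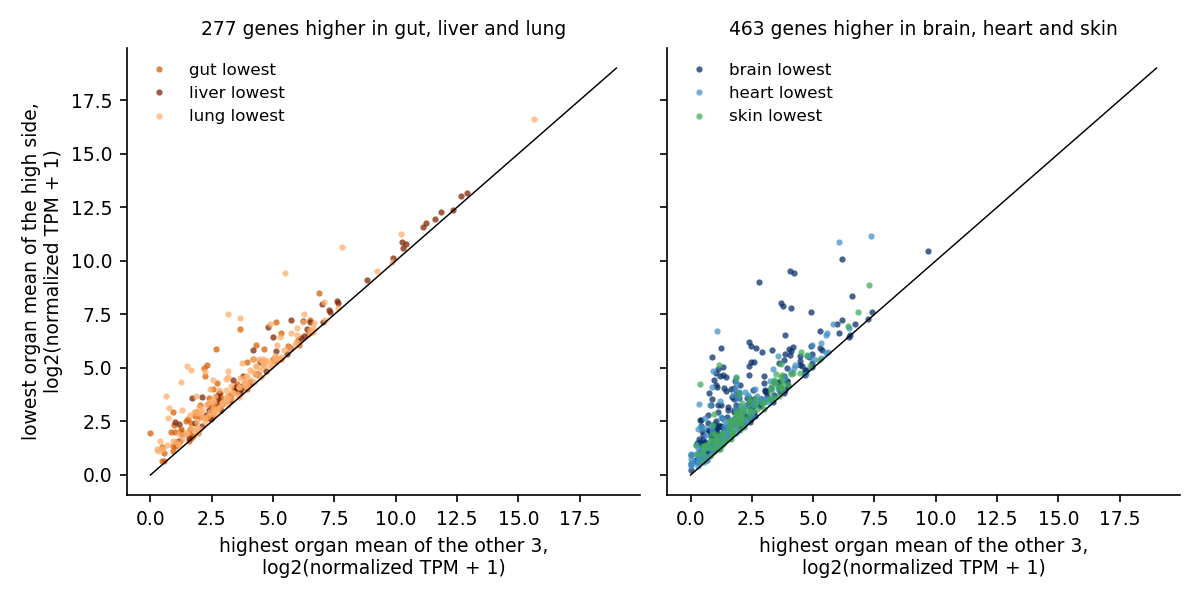
Lowest organ mean on the high side (y axis) against the highest organ mean on the low side (x axis) for the 277 genes higher in gut, liver and lung (left) and the 463 genes higher in brain, heart and skin (right), in log2(normalized TPM + 1). Each point is a called gene, coloured by the organ with the lowest mean on its high side, and the line marks equal means. Points gather near the line, with lung the lowest organ for 142 of the 277 genes and brain the lowest for 220 of the 463.

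Among the genes called higher in the viscera, the largest difference was that of a lipid gene. APOB, the structural protein of the lipoproteins that carry fat out of gut and liver, was at 3394 and 3189 in gut, 4781, 3650.4 and 2804 in liver, 16.1, 717 and 519.8 in lung, 0.535 and 3.46 in brain, 3.39 and 1.10 in heart, and 17.7 and 3.36 in skin. The p4 lung sample was far below the other visceral samples and just below p4 skin, so that the sets overlapped in that pair alone (log2 difference 8.13, standard error 1.07, adjusted p = 0.00036). MOGAT1, an enzyme that makes diacylglycerol on the way to stored and exported fat, had no such overlap, at 349 and 194 in gut, 379, 449.9 and 370.2 in liver, 63.3, 287 and 227 in lung, 1.44 and 0.735 in brain, 1.88 and 4.84 in heart, and 13.8 and 9.41 in skin. The sets differed by 5.76 on the log2 scale (standard error 0.52, adjusted p = 1.86e-05). NR1H3, a nuclear receptor for oxysterols that governs cholesterol export, was even across the viscera, with 211 and 107 in gut, 99.9, 136 and 123 in liver, and 175, 149.9 and 135 in lung. In the other organs it was at 7.11 and 6.50 in brain, 25.6 and 28.1 in heart, and 19.7 and 15.6 in skin, and the lowest visceral sample lay above 3 times the highest of the others (log2 difference 3.13, standard error 0.32, adjusted p = 5.5e-05). LIPA, the lysosomal acid lipase that frees cholesterol from lipoproteins, was similarly even at 119 to 385 in the 8 visceral samples against 29.2 to 65 (log2 difference 2.24, standard error 0.27, adjusted p = 0.0002). It was the only one of 25 tested lysosome genes that was called (4%, against 1.7% of all genes tested).

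Over 13 tested genes for lipoproteins and lipid transport the median log2 difference was 2.41, against -0.06 over all genes tested. Of the 13 genes 3 were called higher in the viscera (23.1%, against 1.7% of all genes tested) and none lower. Beside APOB these were APOA2, an apolipoprotein of high-density particles, and CIDEB, a protein of lipid droplets and lipoprotein loading in liver and gut. APOA2 was at 5160.5 and 1210.3 in gut, 49271, 29843 and 45372 in liver, 94.7, 7578 and 5952 in lung, 8.29 and 36.4 in brain, 35.6 and 72.8 in heart, and 213 and 237 in skin. On the log2 scale this was a difference of 6.65 (standard error 1.24, adjusted p = 0.00514). CIDEB was at 3.53 to 1034 in the viscera and 2.28 to 8.18 elsewhere (log2 difference 5.23, standard error 1.01, adjusted p = 0.00646). In both genes the p4 lung sample was the lowest visceral sample and fell within the range of brain, heart and skin. All 3 stayed called with organ as a random block, a fit in which the samples of an organ are not taken as independent. Without the p5 and p6 lung samples 2 genes of the list were called. APOA2 and CIDEB were not among them, since the p4 lung value of each lay below both skin samples. FABP1, an abundant fatty acid binder, failed the rule because it was high in gut alone, at 8233 and 17899.9 there and 25.3, 26.5 and 26.5 in liver.

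Of 34 plasma protein genes tested 32 had a positive difference, with a median of 3.10, and 6 were called higher in the viscera (17.6%, against 1.7% of all genes tested), none lower. With organ as a random block none of the 34 was called, at an adjusted p of 0.0541 for ITIH3 and 0.0734 for SERPINC1. Only 1 was called without the p6 brain and p6 heart samples, and 2 without the p5 and p6 lung samples. ITIH3, a heavy chain that binds hyaluronan in serum, was at 96.9 and 9.26 in gut, 2574, 1776 and 1324 in liver, 6.28, 310 and 227 in lung, 1.08 and 2.68 in brain, 1.33 and 0.607 in heart, and 8.61 and 1.11 in skin. The log2 difference was 6.15 (standard error 1.22, adjusted p = 0.00723). SERPINC1 was at 4.17 to 1745 in the viscera and 1.20 to 6.14 elsewhere (log2 difference 5.10, standard error 1.15, adjusted p = 0.0168), and both genes had p4 lung within the range of the other set. SERPINA12, a serpin outside the list, was at 965 and 621 in gut, 37731, 10372 and 24626 in liver, and 112, 1922 and 1486 in lung against 8.33 to 124 (log2 difference 6.59, standard error 1.11, adjusted p = 0.00266). The liver samples held 139668 to 266905 normalized TPM of the list in sum, the lung samples 26693 to 37858 and the gut samples 552 to 653, while brain, heart and skin held 434 to 1205. Gut therefore lay within the range of the other set in the sum. ALB, serum albumin, missed the threshold (adjusted p = 0.0515). It also failed the organ rule, with a gut mean of 6.50 below the skin mean of 7.53 on the log2 scale. TF, transferrin, passed the test (log2 difference 4.65, adjusted p = 0.0287) but not the organ rule. It was at 293 and 180 in gut, 529 and 248 in brain, 296 and 252 in heart, and 314 and 276 in skin. The gut mean thus lay below those of brain, heart and skin. TF was at 25997, 14774 and 15972 in lung, highest in p4, and made up most of the list sum of 26693 in p4 lung.

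Of 24 detoxification enzymes and efflux pumps 7 were called higher in the viscera (29.2%, against 1.7% of all genes tested) and 1 lower (4.17%, against 2.84%). The list median was 1.06. The count of 7 fell to 1 with organ as a random block and to 2 without the p6 brain and p6 heart samples. Without the p5 and p6 lung samples the count was 4. MGST1, a membrane-bound glutathione transferase, was at 1380.2 and 668 in gut, 1411, 935 and 1075 in liver, 212, 305 and 302 in lung, 34.3 and 47.1 in brain, 50.6 and 103 in heart, and 109 and 169 in skin. The sets differed by 3.09 on the log2 scale (standard error 0.50, adjusted p = 0.00185). The sets did not overlap. Aldehyde oxidase, annotated aox1, was at 149 and 15.5 in gut, 109, 146 and 42 in liver, and 0.324, 26.2 and 17.7 in lung and 0.267 to 0.808 in brain, heart and skin (log2 difference 4.35, standard error 0.84, adjusted p = 0.00621). Every visceral sample but p4 lung lay above the other range, and the call was lost with organ as a random block (adjusted p = 0.0559). CYP2W1, a cytochrome P450 that was outside the list, was at 10.1 and 189 in gut, 1099, 391 and 736 in liver, and 8.51, 52.5 and 44.3 in lung against 0.665 to 6.61 (log2 difference 5.31, standard error 1.0, adjusted p = 0.00541), with p4 gut and p4 lung the lowest visceral samples and p4 skin the highest of the others. ADH7, an alcohol dehydrogenase named after its values were seen, was at 66.8 and 198 in gut, 56.5, 740 and 80.3 in liver, and 0.584, 192 and 129 in lung against 0 to 2.41 (log2 difference 5.65, standard error 0.97, adjusted p = 0.00298), with p5 liver the highest sample, and lost its call in the same way (adjusted p = 0.0598). The single member called in the opposite direction was CYP26B1, which breaks down retinoic acid, at 0.778 and 0.614 in gut, 0.633, 1.39 and 0.363 in liver, 0.295, 2.01 and 1.68 in lung, 9.31 and 7.90 in brain, 31 and 8.31 in heart, and 48.1 and 14.6 in skin. On the log2 scale this was a difference of -3.14 (standard error 0.38, adjusted p = 0.0002). Every sample of brain, heart and skin lay above every visceral sample for it.

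Nitrogen and carbon metabolism showed few but large differences. OTC, ornithine transcarbamylase of the urea cycle, was at 29.9 and 113 in gut, 1182, 626 and 1033 in liver, 41.1, 167 and 143 in lung, 1.26 and 1.68 in brain, 3.81 and 3.60 in heart, and 7.28 and 3.97 in skin. The log2 difference was 5.58 (standard error 0.77, adjusted p = 0.000562). It was highest in liver, and its lowest visceral value still exceeded its highest value in skin. UROC1, urocanase of histidine breakdown, was at 324 and 117 in gut, 1278, 666 and 932 in liver, and 3.33, 125 and 92.9 in lung and 0.426 to 15 elsewhere (log2 difference 5.36, standard error 1.05, adjusted p = 0.00674). Its p4 lung value lay within the other range. The list median of 35 genes of amino acid breakdown and the urea cycle was 0.32. OTC and UROC1 were 2 of the 4 called among them (11.4%, against 1.7% of all genes tested), all 4 higher in the viscera. That count was 2 with organ as a random block, 3 without the p6 brain and p6 heart samples and 2 without the p5 and p6 lung samples. In the list of gluconeogenesis, bile acid synthesis and peroxisomes 6 of 23 were called higher (26.1%, against 1.7% of all genes tested) and none lower, with a median of 0.65. Over the list 3 were called with organ as a random block and 1 without the p6 brain and p6 heart samples. Without the p5 and p6 lung samples 4 were called, not all of them among the 6. The p4 lung sample, then the only one of lung, lay above each organ mean of brain, heart and skin in 3 of the 6. ACOX2, a peroxisomal oxidase that shortens the side chain of bile acid precursors, was at 541 and 123 in gut, 270.5, 103 and 172 in liver, and 2.35, 19.9 and 15.5 in lung against 0.873 to 6.23 (log2 difference 4.38, standard error 0.92, adjusted p = 0.011), again with p4 lung within the other range. PCK2, the mitochondrial enzyme that supplies phosphoenolpyruvate for glucose synthesis, was at 1534 and 962 in gut, 377, 361 and 230.4 in liver, 147, 144 and 136 in lung, 14.4 and 13.7 in brain, 69.7 and 43.5 in heart, and 110.1 and 48.8 in skin. The sets differed by 3.05 on the log2 scale (standard error 0.61, adjusted p = 0.00789). Gut was highest of the viscera, and the sets did not overlap.

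Among 13 endoderm transcription factors 2 were called higher in the viscera (15.4%, against 1.7% of all genes tested). Only 1 was called with organ as a random block or without either pair of samples that stood apart. FOXA2, a factor of the early endoderm that keeps hepatic, intestinal and lung genes open, was at 11.6 and 5.55 in gut, 38.3, 43 and 21.5 in liver, 16.6, 29.7 and 26.3 in lung, 5.34 and 4.17 in brain, 1.65 and 1.43 in heart, and 3.06 and 4.45 in skin. On the log2 scale this was a difference of 2.40 (standard error 0.40, adjusted p = 0.00242). Liver was highest, and the lowest visceral sample, p5 gut, lay just above the highest other sample, p4 brain. NR1H4, the bile acid receptor, was at 65.1 and 30.5 in gut, 35.2, 22.2 and 17.4 in liver, and 0.622, 5.90 and 4.37 in lung against 0.584 to 2.10 (log2 difference 2.56, standard error 0.66, adjusted p = 0.0322), and its call was lost without any one of the brain, heart or liver samples, p5 gut or p6 skin, at adjusted p of 0.0514 to 0.0692, and with organ as a random block (adjusted p = 0.0823).

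Of 20 simple epithelium genes 3 were called higher in the viscera (15%, against 1.7% of all genes tested) and none lower, with a median of 0.73. Organ as a random block left 2 called, and leaving out either pair of samples that stood apart left 1. The gene annotated cldn1, a claudin that seals tight junctions, was at 489 and 609 in gut, 324, 211 and 129 in liver, 3.23, 33.9 and 27.7 in lung, 1.39 and 2.62 in brain, 3.56 and 5.41 in heart, and 3.37 and 1.78 in skin. The log2 difference was 4.74 (standard error 0.92, adjusted p = 0.00655). Gut was highest and lung lowest, and p4 lung lay within the other range. FOLR1, a folate receptor of epithelial surfaces outside the list, was high in lung as well as in gut, at 495 and 337 in gut, 218, 315 and 232 in liver, 520.1, 235 and 387 in lung, 19.7 and 14.4 in brain, 113 and 139 in heart, and 14 and 17.7 in skin. The sets differed by 3.28 on the log2 scale (standard error 0.51, adjusted p = 0.00148). ARSE, an arylsulfatase, was at 13.1 to 203 against 1.09 to 5.11 (log2 difference 3.37, standard error 0.55, adjusted p = 0.00199), and myo15b, an unconventional myosin, at 9.62 to 249 against 0.931 to 2.94 (log2 difference 3.5, standard error 0.67, adjusted p = 0.00617), both with gut highest and no overlap. The receptor phosphatase annotated ptprj was at 16 to 267 against 2.74 to 8.64 (log2 difference 3.21, standard error 0.58, adjusted p = 0.00427). KRT19, a keratin of simple epithelia, was at 21457 and 18789.7 in gut but at most 43.4 in liver and lung and up to 99.2 in skin, and was not called (log2 difference 2.93, adjusted p = 0.334). Of 4 tested smooth muscle genes 2 were called higher in the viscera (50%, against 1.7% of all genes tested) and 1 lower (25%, against 2.84%). Smooth muscle sheathes gut and airways. MYLK, the kinase that triggers its contraction, was at 9.07 to 39.3 against 4.56 to 10.6 (log2 difference 1.63, standard error 0.32, adjusted p = 0.00723) and CALD1, an actin-binding regulator, at 6.08 to 23.1 against 1.38 to 4.32 (log2 difference 1.62, standard error 0.32, adjusted p = 0.00686). SYNPO2, the member called the other way, was at 0.358 to 9.74 against 5.06 to 141 (log2 difference -3.59, standard error 0.69, adjusted p = 0.00589), highest in skin. Its brain mean of 3.42 on the log2 scale lay just above its gut mean of 3.38. The p4 brain sample was below both gut samples. SYNPO2 was not called without the p6 brain and p6 heart samples or with quantile normalization. The smooth muscle list summed to 25.1 to 69.7 in the viscera against 13.6 to 157, with skin highest at 121 and 157.

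FTL, annotated as a ferritin light chain that stores iron, was the most abundant called gene, at 157019 and 112332 in gut, 256542, 374496 and 436961 in liver, 89901, 101727 and 114484 in lung, 8359 and 18469 in brain, 21908 and 61817 in heart, and 32408 and 78405 in skin. On the log2 scale this was a difference of 2.60 (standard error 0.51, adjusted p = 0.0072). Of 19 iron and heme genes 3 were called higher in the viscera (15.8%, against 1.7% of all genes tested) and none lower, with a median of 0.91. Only 1 was called with organ as a random block, without the p6 brain and p6 heart samples or without the p5 and p6 lung samples. FTL took 4.67% to 32.1% of all TPM in the visceral samples and 1.79% to 8.34% in the others, with liver highest. With quantile normalization, which sets the top value of every sample equal, its difference was 0.66 (adjusted p = 0.417). MPEG1, a pore-forming protein of macrophages, was at 22.4 to 137 against 7.15 to 25.3 (log2 difference 2.29, standard error 0.41, adjusted p = 0.00445), with p6 liver below the highest skin and heart samples, and an adjusted p of 0.0718 with organ as a random block. LCK, a kinase of T cells, went the other way at 0 to 0.532 against 1.10 to 4.10 (log2 difference -1.51, standard error 0.21, adjusted p = 0.000562). Of 15 leukocyte genes 2 were called higher in the viscera (13.3%, against 1.7% of all genes tested) and 1 lower (6.67%, against 2.84%). None was called higher with organ as a random block. The list summed to 563 to 1275 in the viscera against 236 to 451. None of 3 lung epithelium genes, none of 13 endothelium genes and none of 3 red blood cell genes was called. The endothelium list summed to 49.2 to 105 in the viscera against 26.1 to 187, and the red blood cell list to 3977 to 1049728 against 5625 to 124221.

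Of 25 cytoplasmic ribosomal protein genes tested, 23 had a positive difference, and the median was 1.19. Among the 25 genes 8 were called higher in the viscera (32%, against 1.7% of all genes tested) and none lower. RPLP2 was at 4283 and 6345 in gut, 3203, 3287 and 4090.3 in liver, 5323, 3502 and 5869.9 in lung, 682 and 917 in brain, 1522 and 3026 in heart, and 2372 and 2451 in skin. The log2 difference was 1.44 (standard error 0.33, adjusted p = 0.0185). Brain was lowest and the lowest visceral sample lay just above p6 heart, and the call was lost without p6 brain (adjusted p = 0.0512). This group depended on the scaling. On TPM as deposited none of the 25 was called higher and 1 was called lower, with quantile normalization 2 were called higher, and with organ as a random block none was called. Without the p6 brain and p6 heart samples 2 were called, and without the p5 and p6 lung samples none. Of 22 respiratory chain and ATP synthase genes none was called in either direction, with 20 below 0 and a median of -0.36. NDUFV1 and NDUFS7, subunits of respiratory chain complex I, passed the test and the minimum difference. Their log2 differences were -1.27 and -1.14 (adjusted p = 0.0391 and 0.0427). Both failed the organ rule, with gut means of 7.34 and 7.13 above brain means of 7.12 and 6.83 on the log2 scale. The count of called genes among the 22 moved with the scaling too, to 7 called higher in brain, heart and skin on TPM as deposited and 2 with quantile normalization.

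**Figure D3:**
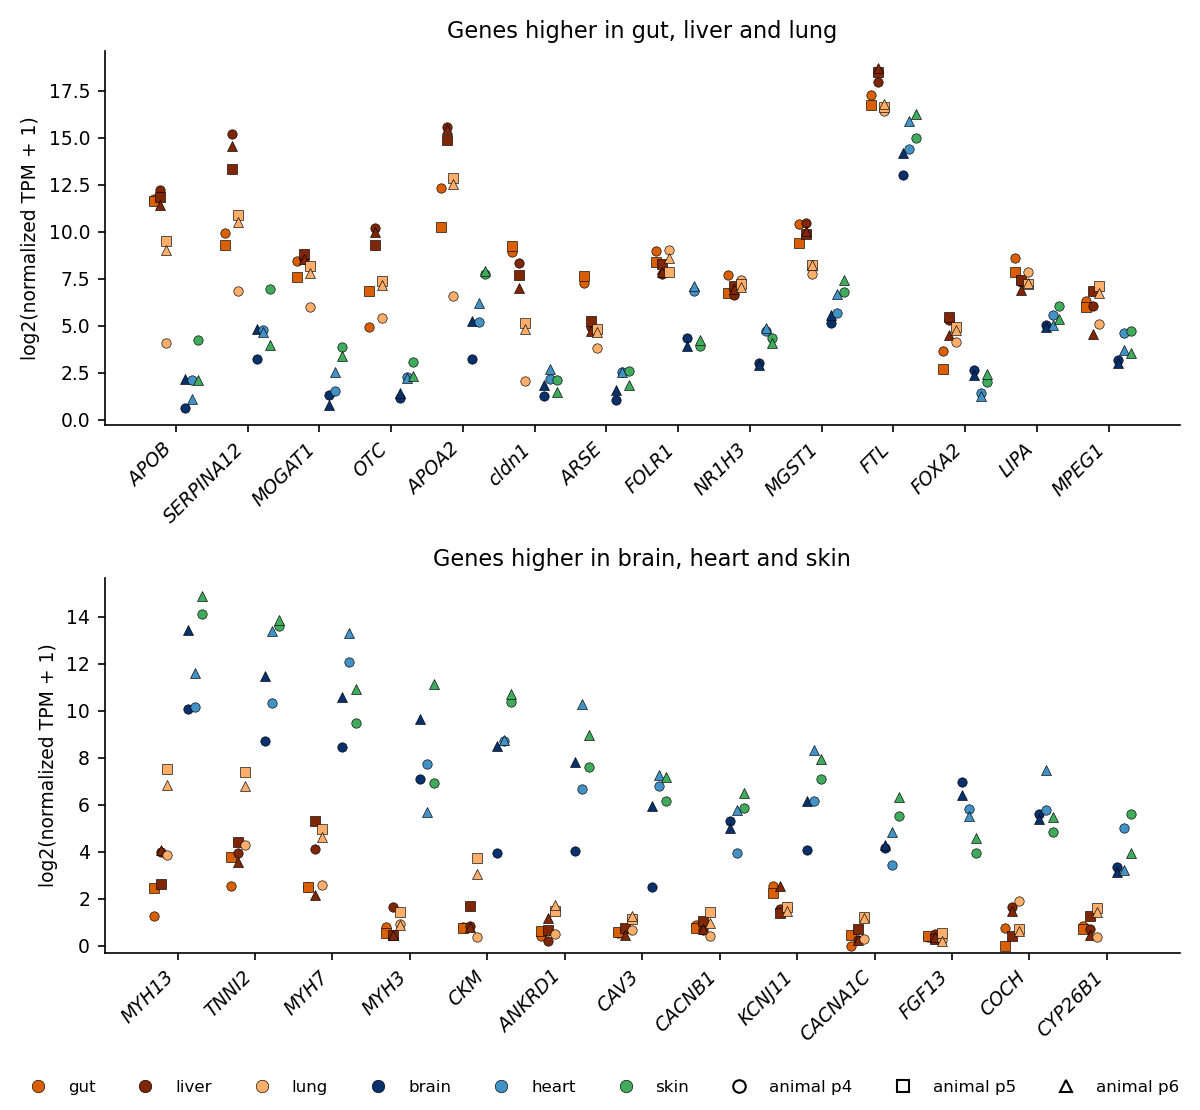
Normalized TPM, as log2(normalized TPM + 1), in each of the 14 samples for 14 genes higher in gut, liver and lung (top) and 13 genes higher in brain, heart and skin (bottom). Colours give the organ and marker shapes the animal by title, with the 8 visceral samples to the left of each gene. In the top panel p4 lung falls among the other set for APOB, SERPINA12, APOA2 and cldn1, while in the bottom panel the sets do not overlap for any of the 13 genes.

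The genes higher in brain, heart and skin included most of the skeletal muscle genes tested. Of 23 tested skeletal muscle genes 21 were called in this direction (91.3%, against 2.84% of all genes tested) and none in the other. The median log2 difference was -5.77. Each symbol stood for its most abundant assembled gene. With every assembled gene of these symbols counted, 30 of 43 were called in this direction and none in the other. Across the 463 genes the median size of the difference was 1.96 and the largest was 8.38. Every sample of brain, heart and skin lay above every visceral sample in 220 of them, which held for 267 of all genes tested (1.64%). The mean was highest in skin for 225, in brain for 139 and in heart for 99, while brain was the lowest of these 3 organs for 220. The p4 brain and p4 heart samples, the ones with less skeletal muscle RNA, both lay above each visceral organ mean in 390 of the 463 (84.2%). Both are part of the organ means used in the call, so this count too describes the called genes and is no check on them.

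Sarcomere genes carried the largest differences. MYH13, annotated as a fast myosin heavy chain, was at 1.39 and 4.48 in gut, 14.8, 5.20 and 15.8 in liver, 13.5, 184 and 112 in lung, 1063 and 11209.7 in brain, 1155 and 3079.8 in heart, and 17650.4 and 30559.6 in skin. The sets differed by -8.30 on the log2 scale (standard error 1.01, adjusted p = 0.0002). MYH7, the slow myosin chain of heart and slow fibres, was at 4.65 and 4.67 in gut, 16.4, 38.8 and 3.47 in liver, 4.94, 30.4 and 23.5 in lung, 347 and 1531 in brain, 4267 and 10120.0 in heart, and 708 and 1939 in skin. On the log2 scale this was a difference of -7.20 (standard error 0.73, adjusted p = 4.58e-05). MYH13 was highest in skin and MYH7 highest in heart, and in both the brain samples exceeded every visceral sample. MYH3, an embryonic chain, was at 0.368 to 2.12 in the viscera and at 134 and 808 in brain, 213 and 50.4 in heart, and 121 and 2246 in skin (log2 difference -7.15, standard error 0.65, adjusted p = 1.86e-05). MYH1 had the largest difference of all (log2 difference -8.38, standard error 1.38, adjusted p = 0.00223), although p5 lung, at 491, lay above p4 heart, at 462. Myosin heavy chains are closely related copies, so how reads were divided among MYH1, MYH3, MYH7, MYH8 and MYH13 is uncertain.

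TNNI2, the inhibitory troponin of fast fibres, was at 4.75 and 12.6 in gut, 14.6, 20.1 and 10.9 in liver, 18.5, 165 and 112 in lung, 418 and 2885 in brain, 1286 and 10822 in heart, and 12329.8 and 14878 in skin. The log2 difference was -7.31 (standard error 0.89, adjusted p = 0.0002). KLHL41, a protein that stabilises thin filaments, was at 0.915 to 22.6 in the viscera and 95.8 and 688 in brain, 279 and 1671 in heart, and 2477 and 3410.1 in skin (log2 difference -7.30, standard error 0.79, adjusted p = 9.39e-05). The order skin, heart, brain and the higher p6 values recurred in both. TNNI1, MYOM2 and LMOD3, for slow troponin, the filament lattice and thin filament length, differed by -6.31, -6.30 and -6.21 on the log2 scale, with no overlap between the sets. Of 12 cardiac muscle genes 5 were called (41.7%, against 2.84% of all genes tested). ANKRD1, a nuclear and sarcomeric stress protein, was at 0.131 to 2.27 against 15.5 and 225 in brain, 102 and 1247 in heart, and 195 and 496 in skin (log2 difference -6.73, standard error 0.70, adjusted p = 5.65e-05), and MYOZ2, which anchors calcineurin at the Z disc, at 0 to 1.25 against 6.19 and 1.55 in brain, 215 and 189 in heart, and 88.9 and 128 in skin (log2 difference -4.98, standard error 0.86, adjusted p = 0.0031). TNNT2, the cardiac troponin T, was high in heart alone, at 16364 and 9655, and missed the rule (adjusted p = 0.289).

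**Figure D4:**
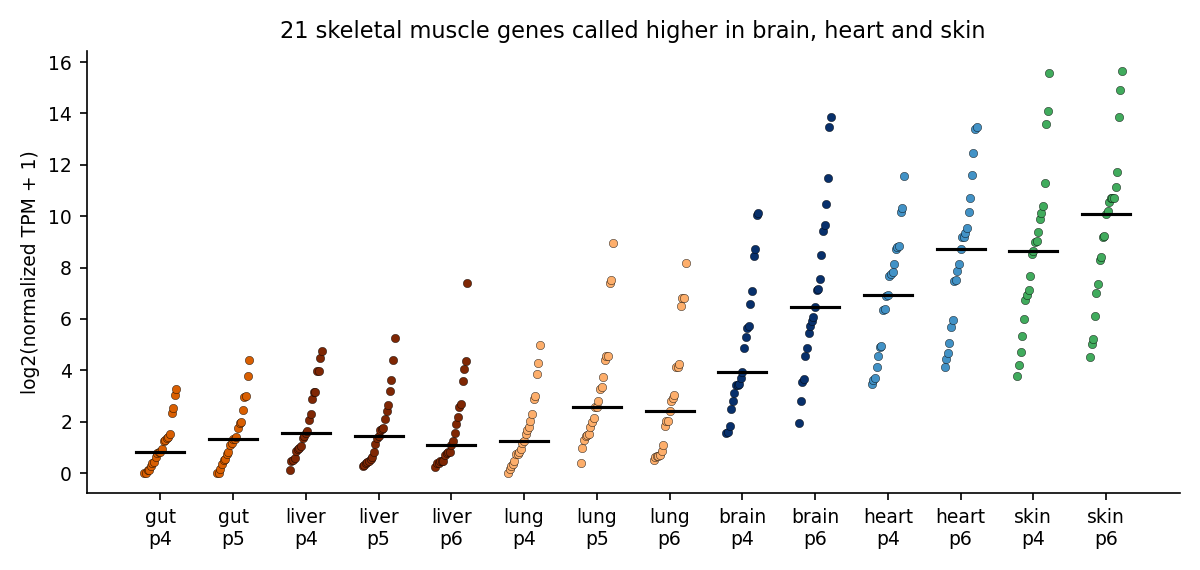
The 21 called skeletal muscle genes in each of the 14 samples, on the y axis as log2(normalized TPM + 1), with the samples by organ and animal on the x axis. Points are genes, sorted within a sample, and bars are medians, which lie at 0.84 to 2.59 in the visceral samples, 3.95 and 6.46 in brain, 6.91 and 8.74 in heart, and 8.64 and 10.1 in skin.

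Within brain, heart and skin the 21 called skeletal muscle genes were not even. The median p6 minus p4 difference was 2.58 on the log2 scale in brain, with 19 of 21 higher in p6, then 1.36 in heart with 18 and 0.72 in skin with 21. Over the other 442 called genes of this direction the same medians were 0.12, 0.22 and 0.51. Without the p6 brain and p6 heart samples 18 of the 23 were called, without the p5 and p6 lung samples 20, and with organ as a random block 17. The part of muscle tissue taken along with an organ was not tested.

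Excitation-contraction coupling, by which a membrane signal releases calcium onto the sarcomere, had 10 of 22 genes called (45.5%, against 2.84% of all genes tested). None was called in the other direction, and the median was -0.96. CACNB1, the beta subunit of the muscle calcium channel, had a small error and no overlap, at 0.85 and 0.673 in gut, 0.597, 1.07 and 0.641 in liver, 0.32, 1.69 and 0.962 in lung, 39 and 31.5 in brain, 14.2 and 53.2 in heart, and 56.9 and 90 in skin. The sets differed by -4.54 on the log2 scale (standard error 0.33, adjusted p = 3.4e-06). CACNA1C, the pore of the cardiac and neuronal L-type calcium channel, was at 0 to 1.35 in the viscera and 17 and 18.2 in brain, 9.64 and 27.7 in heart, and 44.4 and 79.6 in skin (log2 difference -4.21, standard error 0.39, adjusted p = 2.05e-05). In both genes the brain samples lay between the p4 and the p6 heart samples. CAV3, the caveolin of muscle membranes, was at 0.364 to 1.42 against 4.59 and 60.7 in brain, 109 and 152 in heart, and 70.5 and 143 in skin (log2 difference -5.20, standard error 0.58, adjusted p = 9.7e-05), and CHRNB1, a subunit of the acetylcholine receptor at the nerve-muscle junction, at 0.225 to 2.63 against 5.77 and 33.3 in brain, 64.6 and 150.2 in heart, and 121 and 185 in skin (log2 difference -4.90, standard error 0.60, adjusted p = 0.0002). In both the p4 brain sample was the lowest of its set by far. Of the 22 genes 8 were called without the p6 brain and p6 heart samples and 7 with organ as a random block.

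Energy supply of muscle was represented by 8 called of 20 (40%, against 2.84% of all genes tested), all higher in brain, heart and skin. With organ as a random block 5 were called, and without the p6 brain and p6 heart samples 6. CKM, the muscle creatine kinase that buffers ATP, was at 0.716 and 0.685 in gut, 0.81, 2.23 and 0.712 in liver, 0.29, 12.2 and 7.31 in lung, 14.4 and 358 in brain, 419 and 427 in heart, and 1332 and 1673 in skin (log2 difference -7.00, standard error 0.88, adjusted p = 0.000246), with p4 brain close to p5 lung. PFKM, the muscle phosphofructokinase of glycolysis, was at 8.95 to 65.9 against 59.2 to 1712 (log2 difference -4.27, standard error 0.65, adjusted p = 0.00129), with p5 gut above p4 brain. CKMT1B, a mitochondrial creatine kinase, showed another distribution, at 8997 and 13449 in gut, 410.4 and 389 in brain and at most 138 elsewhere, and was not called (log2 difference 2.36, adjusted p = 0.5).

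Of 24 voltage-gated and leak channel genes 3 were called (12.5%, against 2.84% of all genes tested), with a median of -0.92. KCNJ11, a potassium channel that senses ATP, was at 4.76 and 3.71 in gut, 1.92, 1.59 and 4.73 in liver, 2.16, 2.11 and 1.77 in lung, 15.6 and 70.9 in brain, 69.6 and 319 in heart, and 136 and 243 in skin (log2 difference -4.75, standard error 0.52, adjusted p = 9.39e-05). CACNA2D3, an accessory calcium channel subunit, was lower in level, at 0.0525 to 0.535 against 0.688 to 6.34 (log2 difference -1.44, standard error 0.27, adjusted p = 0.00553). Of 29 neuron and synapse genes 26 had a negative difference, with a median of -1.36, and 4 were called (13.8%, against 2.84%). Of these lists 2 neuron genes and 3 channel genes were called with organ as a random block, and as many without the p6 brain and p6 heart samples. SPTBN4, a spectrin that holds channels in axons, was at 0 to 2.20 against 6.44 and 25.4 in brain, 157 and 108 in heart, and 106 and 160.5 in skin (log2 difference -5.45, standard error 0.60, adjusted p = 9.39e-05), so it was higher in heart and skin than in brain. ANK2, an ankyrin of neurons and heart muscle, was at 2.44 to 6.06 against 61.1 and 43.4 in brain, 22.9 and 15.2 in heart, and 5.79 and 11 in skin (log2 difference -2.08, standard error 0.41, adjusted p = 0.00723) and was highest in brain, with p4 skin below the highest liver sample. SYT1 was not called (adjusted p = 0.143), nor was GAP43, a growth cone protein, at 1333 and 1044 in brain and 38.9 and 47.7 in skin. The neuron list summed to 5207 to 7843 in brain, 348 to 496 in heart, 269 to 319 in skin and 82.9 to 335 in the viscera. The p5 lung sample lay above both skin samples, and p6 lung lay above p4 skin.

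The gene annotated GRIN3B, a subunit of glutamate receptors, was at 0.183 to 10.5 in the viscera and 24.6 and 144 in brain, 132 and 718 in heart, and 972 and 1597 in skin (log2 difference -6.82, standard error 0.83, adjusted p = 0.0002). It was highest in skin and lowest in brain, the same order as in TNNI2 and KLHL41, and its name rests on the similarity search of the annotation alone. FGF13, which binds sodium channels and is known from neurons and heart, had the reverse order, at 0.287 and 0.33 in gut, 0.407, 0.212 and 0.286 in liver, 0.175, 0.453 and 0.157 in lung, 123 and 83 in brain, 55.2 and 45.4 in heart, and 14.2 and 23.3 in skin (log2 difference -5.17, standard error 0.38, adjusted p = 3.4e-06), and the lowest sample of brain, heart and skin was above 14 while no visceral sample reached 0.5. COCH, a secreted protein first known from the inner ear, was at 0.678 and 0 in gut, 2.11, 0.333 and 1.77 in liver, 2.68, 0.611 and 0.557 in lung, 48.1 and 41.5 in brain, 54.4 and 175 in heart, and 27.2 and 44.1 in skin (log2 difference -4.83, standard error 0.39, adjusted p = 6.5e-06). NMBR, a receptor for the peptide neuromedin B, was at 0 to 1.35 in the viscera and 14.2 and 18.5 in brain, 2011 and 1017 in heart, and 19.2 and 62.1 in skin (log2 difference -6.07, standard error 0.99, adjusted p = 0.00197), with heart far highest. These last 3 genes were named after their values were seen.

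Dystrophin complex and costamere genes tie sarcomeres to the membrane. Of 11 tested, 6 were called higher in brain, heart and skin (54.5%, against 2.84% of all genes tested), with a median of -1.58. The random block of organ left 3 of them called, and 4 were called without the p6 samples of brain and heart. HSPB1, a small heat shock protein abundant in muscle, was at 0.355 to 1.97 against 2.33 and 3.74 in brain, 39.5 and 22.9 in heart, and 13.7 and 25.3 in skin (log2 difference -2.72, standard error 0.48, adjusted p = 0.00373). The sets did not overlap for it, although p4 brain lay just above p4 lung. OBSL1, an obscurin-like protein, was at 0.272 to 1.84 against 1.65 and 2.52 in brain, 163 and 94.7 in heart, and 30.1 and 57.6 in skin (log2 difference -3.69, standard error 0.80, adjusted p = 0.0132), mostly in heart, and its call was lost without p6 brain, where the brain mean no longer lay above the lung mean. Among 18 genes of desmosomes, adherens junctions and intercalated discs 1 was called (5.56%, against 2.84% of all genes tested). JUP, plakoglobin, was not called, at 558 and 458 in gut, 333 and 158 in heart and 505 and 162 in skin.

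Of 21 collagen and matrix genes 2 were called (9.52%, against 2.84% of all genes tested), both higher in brain, heart and skin. The list median was -0.48. LUM, a proteoglycan that spaces collagen fibrils, was at 8.12 and 10.9 in gut, 10.6, 5.74 and 1.81 in liver, 88.6, 33.4 and 32.1 in lung, 114 and 164 in brain, 66.6 and 148 in heart, and 129.7 and 194 in skin (log2 difference -3.13, standard error 0.61, adjusted p = 0.00668), and p4 lung lay above p4 heart. Of 12 epidermis genes KRT15 alone was called (8.33%, against 2.84% of all genes tested). Its log2 difference was -1.72 (adjusted p = 0.0251). The call was lost without p4 brain, p6 brain or p4 heart (adjusted p 0.0532, 0.0661 and 0.0159, the last through the organ rule). With organ as a random block 0 of the 12 were called, and without the p6 brain and p6 heart samples 3 were. The list summed to 5675 to 17378 in skin, 496 to 809.5 in brain and 41.4 to 182 in heart. In the viscera it summed to 49.4 to 322, so heart did not lie above them. KRT5 (adjusted p = 0.0716) and TP63, the master regulator of stratified epithelia (adjusted p = 0.0566), were skin genes that missed the rule. Of 6 pigment cell genes none was called. Of 12 glia and myelin genes 1 was called, UGT8 on the visceral side (8.33%, against 1.7% of all genes tested). Its log2 difference was 1.46 (adjusted p = 0.0323). Its call was lost without p6 brain, p6 skin, either heart sample or any liver sample (adjusted p 0.0541 to 0.0685).

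Transcription factors of muscle, heart and nervous system were called in 9 of 26 (34.6%, against 2.84% of all genes tested). All 9 were higher in brain, heart and skin, and the list median was -1.15. MYF5, which commits cells to the muscle lineage, was at 0.303 to 1.31 against 0.949 and 9.45 in brain, 6.33 and 32.8 in heart, and 20.3 and 28.7 in skin (log2 difference -2.83, standard error 0.51, adjusted p = 0.00409), and p4 brain lay within the visceral range. The call was lost without p6 brain, where the organ rule failed at an adjusted p of 0.00977. SOX3, a factor of neural progenitors, was at 0 to 8.80 against 59.1 and 26.1 in brain, 2.35 and 5.67 in heart, and 169 and 19.9 in skin (log2 difference -3.15, standard error 0.74, adjusted p = 0.021), highest in p4 skin, and its call was lost without p6 heart, p4 lung or p5 lung through the organ rule (adjusted p 0.0162 to 0.0347). With organ as a random block 2 of the 26 were called, and without the p6 brain and p6 heart samples 3.

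**Figure D5:**
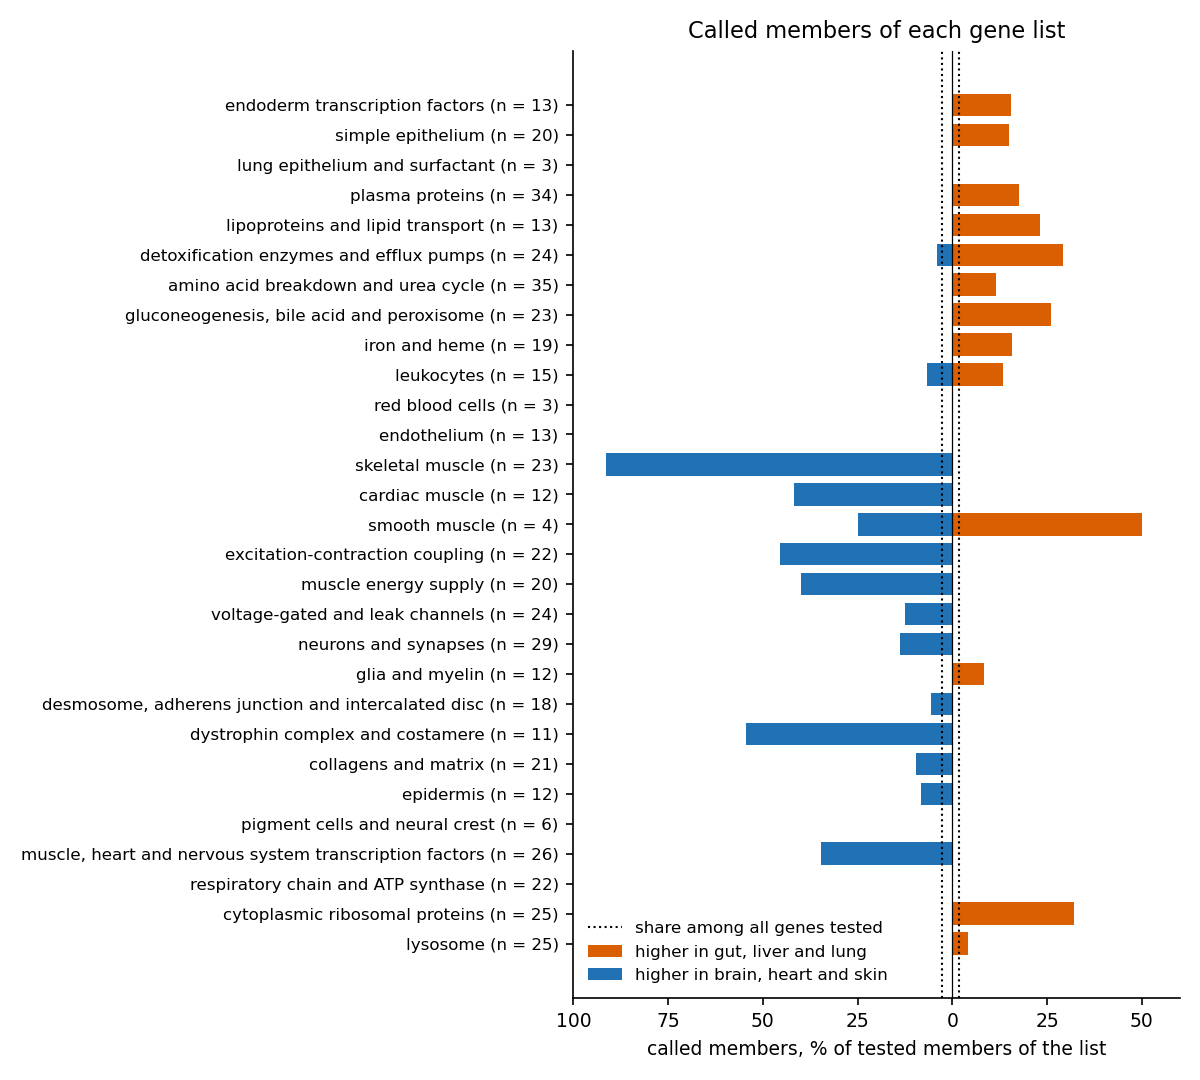
Called members of each of 29 gene lists as a percentage of the tested members, to the right for genes higher in gut, liver and lung and to the left for genes higher in brain, heart and skin, with the number tested in parentheses. Dotted lines mark the shares among all 16317 genes tested, 1.7% and 2.84%. The skeletal muscle bar is longest, with 21 of 23 members called.

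Within p4 alone, with 3 visceral samples against 3, the median size of the log2 difference was 1.65 over the 277 genes and 1.82 over the 463, and within p6, with liver and lung against the 3 other organs, it was 1.71 and 2.09. The genes were chosen on these same samples and the animal of the p6 heart sample is uncertain, so these medians describe the called genes and lend no support to their direction. The test took samples, not organs, as its units. There were 3 organs on each side, so an exact test over organ means could not fall below p = 0.1. When samples of an organ were treated as related through a random block, 77 genes remained called higher in gut, liver and lung and 195 higher in brain, heart and skin, all of them among the 277 and the 463. With the animal by title as a block the counts were 83 and 269, and they were 208 and 416 with the animal taken from the sample table of the study.

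Medians of gene lists moved with the scaling. The median over all genes tested was -0.06 here and -0.67 on TPM as deposited, which also turned the list medians of amino acid breakdown, leukocytes, endothelium and lysosome negative, at -0.34, -0.36, -0.53 and -0.28. Quantile normalization turned that of the red blood cell list to -0.19. No other list median changed sign in either scaling.

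The test and the minimum difference alone were passed by 309 genes (1.89%) higher in gut, liver and lung and 502 (3.08%) higher in brain, heart and skin. Of these 71 failed the organ rule, 32 of them higher in the viscera. TF is an example, with a gut mean of 7.85 below the means of brain (8.50), heart (8.10) and skin (8.21) on the log2 scale. The organ rule alone, without the test, was met by 1255 genes (7.69%) higher in gut, liver and lung and 1609 (9.86%) higher in brain, heart and skin.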

How the data were processed

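Poly(A)-selected directional RNA-seq of 14 samples from 6 organs was analysed from the deposited table. The authors trimmed reads with Cutadapt and Trimmomatic, aligned them with bwa mem to their hybrid Trinity assembly, for which the longest transcript stood for each annotated gene, and used featureCounts to count them. That assembly was built from long and short reads of animal p4 alone. Its effect on differences between p4 and the other animals was not tested. The deposited table gives TPM for 18924 genes, and each sample sums to 1e+06. How TPM were computed, and whether reads sharing a molecular identifier were merged, is not given in the sources used here. Gene names come from the authors' similarity-based annotation. Counted depth cannot be recovered from TPM, and the SE of a difference stands for its precision.

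TPM were divided by median-of-ratios factors over 13067 genes above 0 in all samples and taken as log2(value + 1). Tests were run in limma 3.58.1 (R 4.3.3, trended variances, two-sided, Benjamini-Hochberg over the 16317 genes that reached a TPM of 1 in 2 or more samples), 8 against 6 samples without covariates, as 2 groups. Samples of an organ are not independent replicates of an organ set, so p-values measure the spread between these samples. Samples were grouped by title. Same-numbered samples come from the same animal by their titles. The p4 minus p6 differences of 2 organs correlated at -0.02 to 0.22.

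The members and lists were chosen with earlier results of these data known. Named genes were those with the 12 largest differences per direction among genes whose samples do not overlap, up to 3 called and the 2 most abundant members of each list, label checks, and the 3 largest organ gaps per direction. NCAN, ADH7, FGF13, COCH and NMBR were added after their values were seen. So were NDUFV1 and NDUFS7, which were not called and are left out of the counts of named genes below. SYNPO2, which was called, is left out of those counts too. Some genes that the rule names are not reported here. A symbol carried by several assembled genes was represented by the most abundant of them. Alternatives were other pseudocounts (0.1 and 5), filters, scalings, models, blocks and call rules, and each sample, each organ and 2 pairs of samples left out. The procedure was also run on simulated data, with organ effects set smaller than the spread between organs in the called genes. The outcome of that run is not given here and lends no support to the results. Figures were drawn with matplotlib 3.10.9.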

Additional observations from a re-analysis of the deposited data

Results flagged for a closer look

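Of 160 tests for a sample far from the rest of its set on the log2 scale (Dixon's gap test within the 8 visceral or the 6 other samples), 11 stood out. Chance alone gives about 1 in 20 if the values of a set come from 1 normal distribution. Each set mixes organs and the genes were chosen on these values, so the flags are not shown to exceed chance. In p4 lung 5 genes were far below the other visceral samples: MOGAT1 at 63.3 normalized TPM (next lowest 194), APOB at 16.1 (next 519.8), aox1 at 0.324 (next 15.5), UROC1 at 3.33 (next 92.9) and ADH7 at 0.584 (next 56.5). The p4 lung sample was the one poor in RNA of the liver genes chosen above, and the part of this in the 5 values was not tested. In p4 brain CKM was at 14.4 (next lowest of its set 358) and CAV3 at 4.59 (next 60.7), in the brain sample with less skeletal muscle RNA, while TF was at 529, the highest of its set (next 314). CYP2W1 in p4 skin was at 6.61 against at most 1.80 in the rest of its set. COCH in p6 heart was at 175.3 (next 54.4), and TNNI1 in p5 lung was at 5.0 (next 1.75).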

How the results depend on the processing

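No called difference of a named gene other than SYNPO2, for which this was not counted, changed sign under any of 36 alternatives. For many of these the outcome was fixed in advance. The organ rule had set the organ means apart, so leaving out an organ could not change a sign. The same holds for the model of 6 organs and the random block, and changed call rules reused the same differences. Medians of 5 gene lists changed sign with the scaling (amino acid breakdown -0.34, leukocytes -0.36, endothelium -0.53 and lysosome -0.28 on TPM as deposited, red blood cells -0.19 with quantile normalization), and ribosomal protein genes went from 8 called higher to 1 called lower on TPM as deposited. The median over all genes tested was itself -0.67 on TPM as deposited. The lists of amino acid breakdown, leukocytes, endothelium and lysosome still lay above it, by 0.33, 0.31, 0.14 and 0.39. Counts are given for genes higher in gut, liver and lung, then for genes higher in brain, heart and skin, against 277 and 463. A pseudocount of 5 gave 158 and 264, TPM as deposited 89 and 2769, organ as a random block 77 and 195, and the rule that every sample lie apart 83 and 220. The replicate block with the animal by title gave 83 and 269, and 208 and 416 with the animal as the study's sample table gives it. A model of the 6 organs gave 435 for the first direction. Without brain the first count was 110, and without liver the counts were 138 and 241. Without the p6 brain and p6 heart samples the first count was 103, and without the p5 and p6 lung samples 139. Leaving out each sample in turn gave 146 to 351 and 339 to 474, with the lowest first count without p6 brain. The cause of these changes was not tested. The counts not given here stayed within 1.5 times.

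Of 65 named genes that were called, 57 kept the call whichever sample was left out and 54 were called with organ as a random block. SYNPO2, also named and called, is not in these counts. The named genes were picked in part for large differences and gaps, so they do not stand for all called genes. Over all called genes the random block left 77 of 277 (27.8%) and 195 of 463 (42.1%). The limits are 3 organs a side, 2 or 3 animals an organ, labels in conflict, unknown counted depth, and RNA of skeletal muscle genes in brain, heart and skin samples and of liver genes in 2 lung samples, whose sources were not tested.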
